A study of Mus musculus with 23 samples.

Results

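The genes described here are the mouse mitochondrial ribosomal protein genes, taken as the rows of the liver count tables named Mrpl or Mrps followed by a number, with at least 10 counts in at least 5 of the 23 libraries. All 77 such genes met that minimum, out of 24062 genes counted, and all 77 had at least 10 counts in all 23 libraries. The study set Ehhadh knockout (KO) mice against wild-type (WT) mice of a mixed B6/129 background, on L-AC or on saline, and sequenced polyA RNA from the liver of each mouse. Ehhadh encodes the peroxisomal L-bifunctional protein of fatty acid beta-oxidation, and how much of the gene the knockout lacks is not stated. L-AC is not spelled out in the labels. L-aminocarnitine, known by that short name, is an inhibitor of long-chain fatty acid oxidation in mitochondria. There were 5 KO mice on L-AC (28 to 38 weeks old), 6 WT mice on L-AC (28 to 44 weeks), 5 KO mice on saline (31 to 44 weeks) and 7 WT mice on saline (29 to 45 weeks). Total counts per library ran from 24521896 to 48095959, of which the 77 genes took 0.209% to 0.275%.

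Mitochondria keep a ribosome of their own, which translates the few respiratory chain subunits still encoded in mitochondrial DNA. Its ribosomal RNAs come from mitochondrial DNA, whereas every one of its proteins is encoded in the nucleus, translated in the cytosol and imported. Some of these proteins descend from the bacterial ribosome, and others were gained in mitochondria. In liver this machinery feeds the respiratory chain that takes up electrons from fatty acid oxidation. Of the 77 genes, 26 encode small subunit proteins (16 with a bacterial counterpart and 10 specific to mitochondria) and 50 encode large subunit proteins (30 and 20). Mrps30 and Mrps18a count among the large subunit genes, where their proteins sit despite their names. Mrps36 belongs to neither, since its product is a subunit of the oxoglutarate dehydrogenase complex of the citric acid cycle.

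Levels are given as CPM (read counts scaled to a common library total, with TMM factors) and changes as log2 fold changes with their standard error (SE) from a fit of edgeR's quasi-likelihood model over 14196 genes. A gene is called changed at a Benjamini-Hochberg adjusted p under 0.05. Ehhadh itself had 1421 to 2144 CPM in KO and 10260 to 14650 CPM in WT livers on L-AC, and 90.9 to 253 CPM in KO and 635 to 1635 CPM in WT livers on saline, so the genotype groups did not overlap within a treatment. In bulk liver, fewer cells of a type and less RNA per cell cannot be told apart. The summed level of 10 hepatocyte markers was 36870 to 59460 CPM in KO L-AC against 70200 to 80270 CPM in KO saline livers, and 49360 to 56380 CPM in WT L-AC against 64180 to 77920 CPM in WT saline livers, and none of the 10 was at 0. Of these markers, 6 fell and 0 rose in KO, and 5 fell and 1 rose in WT. Of 9 Kupffer cell and macrophage markers, 3 fell and 1 rose in KO, and 6 fell and 1 rose in WT; their sum was 52.1 to 170.4 CPM in KO L-AC against 95.9 to 204.0 CPM in KO saline livers, and 59.7 to 111.8 CPM in WT L-AC against 75.7 to 253.3 CPM in WT saline livers. In the other marker lists, of 8 endothelial markers 1 rose and 2 fell in KO and 1 fell in WT, of 8 stellate cell markers 2 rose and 1 fell in KO and 4 rose and 1 fell in WT, and of 5 cholangiocyte markers 1 fell in each genotype. No neutrophil marker of 3 tested was called, of 5 T and B cell markers 1 rose and 1 fell in KO and 1 rose and 4 fell in WT, and of 7 cell cycle genes 2 rose in each genotype. No listed marker was at 0 in every library. Of all genes tested, 25.2% rose and 23.6% fell with L-AC in KO, and 26.6% rose and 26.7% fell in WT. Neither the difference of the markers from all genes nor the part of the marker shifts in the changes below was tested.

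With L-AC the mitochondrial ribosomal protein genes moved both ways, and their summed level overlapped between L-AC and saline libraries. In KO liver 21 of the 77 rose and 17 fell, which is 49.4% of them called against 48.8% of all genes tested. The 21 are 27.3% of the members, against 25.2% of all genes rising, and the 17 are 22.1%, against 23.6% falling. In WT liver 18 rose and 28 fell, which is 59.7% called against 53.3% of all genes tested. The 18 are 23.4% of the members, against 26.6% of all genes rising, and the 28 are 36.4%, against 26.7% falling; the difference between members and all genes was not tested. Before adjustment 45 members in KO and 48 in WT had a p under 0.05 (55.1% and 58.4% of all genes), and 44 in KO and 35 in WT had a positive log2 fold change (49.6% and 49.3% of all genes positive). The median log2 fold change of the 77 was 0.04 in KO and -0.05 in WT, against -0.01 in both for all genes. Without KO L-AC replicate 2 the members' median in KO was -0.0021. Without KO L-AC replicate 3 it was 0.09, and the members that fell in KO numbered 11. With age in weeks as a covariate the members' median was 0.06 in KO and -0.05 in WT. The median absolute log2 fold change in KO was 0.24, against 0.39 for all genes, and 1 member in KO and 0 in WT passed 2-fold and the test, against 15.2% and 14.2% of all genes. When library totals alone were used for scaling, in place of TMM, the median log2 fold change of all genes shifted up by 0.11 in KO and 0.07 in WT. The median of the members shifted by the same 0.11 and 0.07. On that scaling the members' split became 32 higher and 9 lower in KO and 24 higher and 22 lower in WT. The split of all genes on it is not given here.

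**Figure D1:**
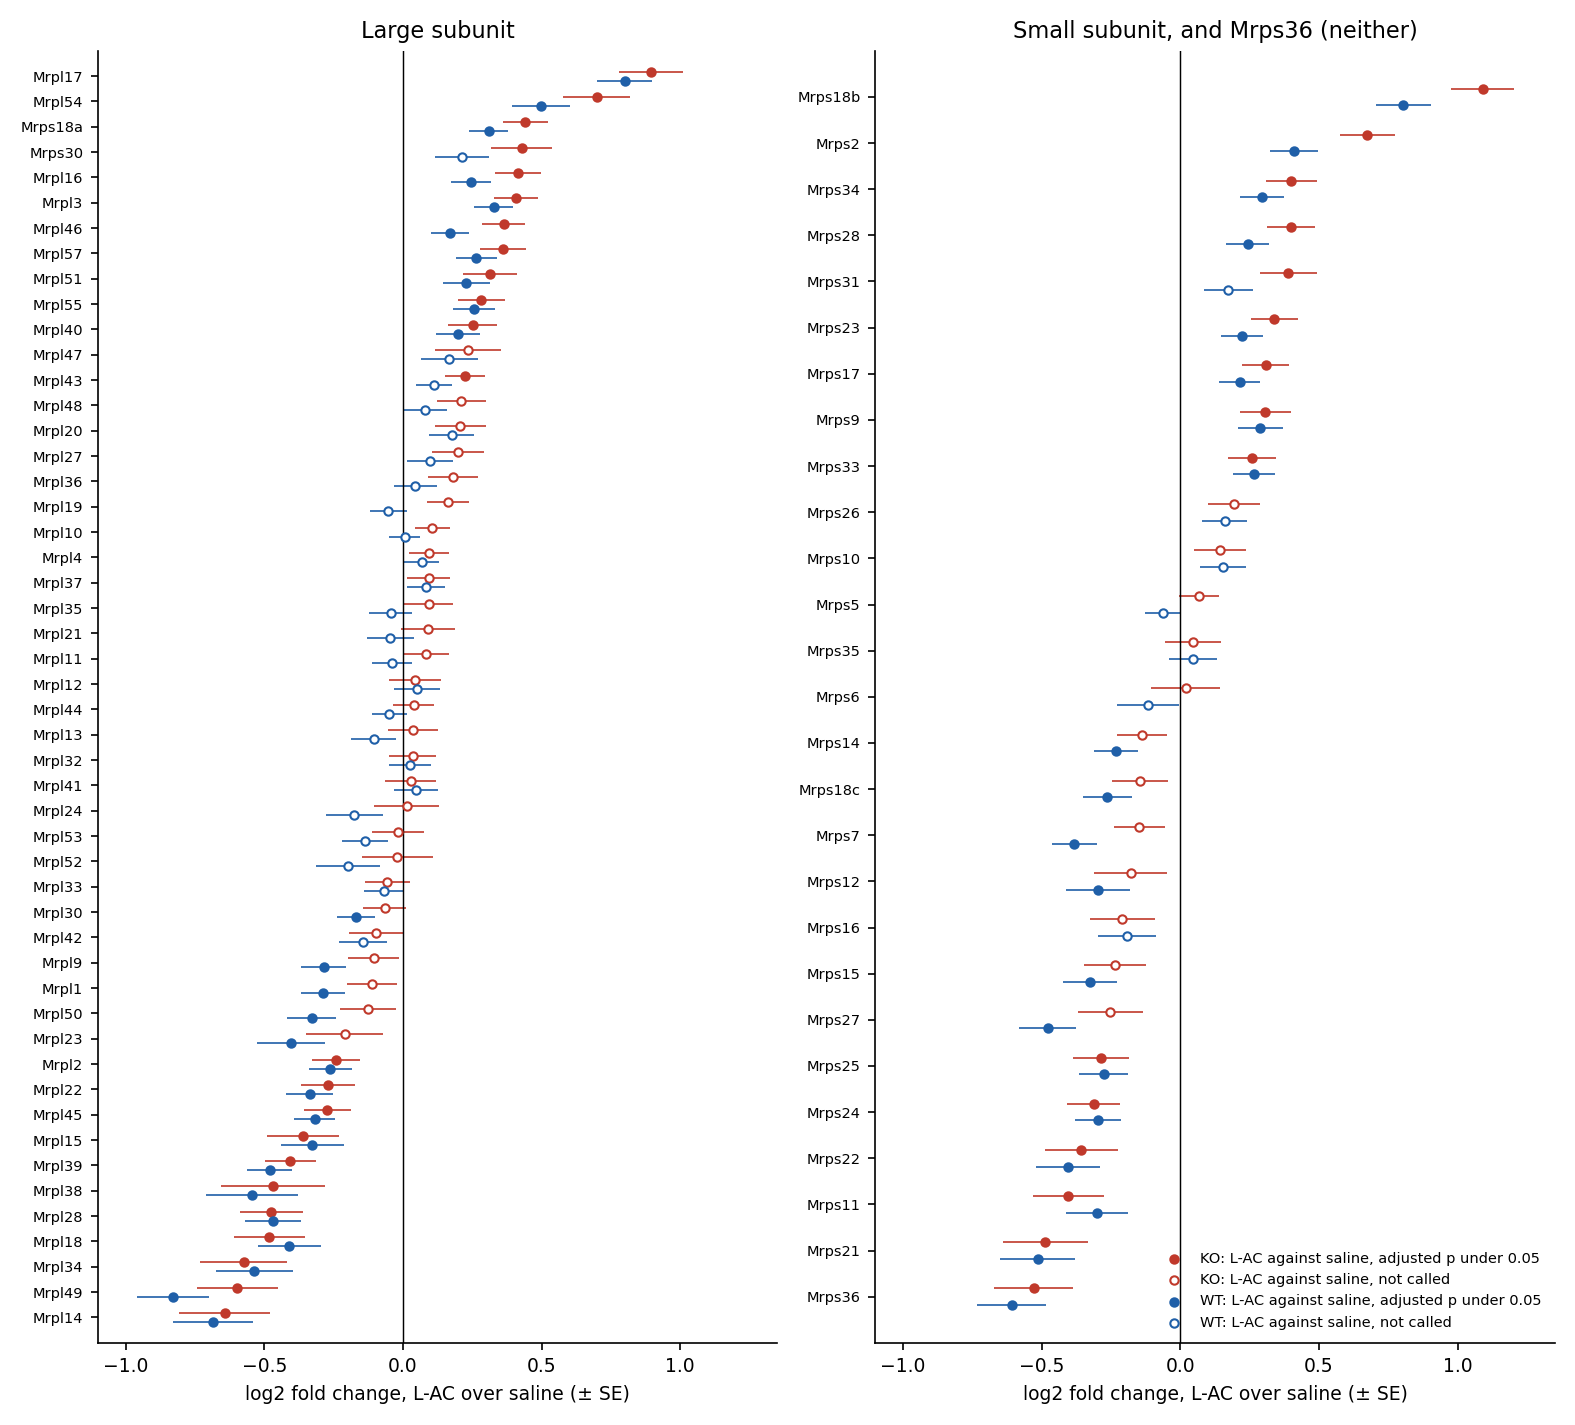
Log2 fold change of each of the 77 genes, L-AC over saline, with its SE, in KO (red) and WT (blue) liver, large subunit genes on the left and small subunit genes with Mrps36 on the right, sorted by the change in KO. Filled points passed an adjusted p of 0.05 and open points did not; in KO 21 rose and 17 fell, and in WT 18 rose and 28 fell.

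The genes that rose furthest were Mrps18b, Mrpl17, Mrpl54 and Mrps2. Mrps18b encodes 1 of 3 mammalian relatives of a single bacterial small subunit protein, and is counted here as specific to mitochondria (chr17:35910385-35916369 on mm10, minus strand). It had 72.8, 79.6, 74.9, 65.5 and 85.0 CPM in the KO L-AC libraries, against 39.4, 39.3, 32.5, 34.0 and 32.2 CPM in the KO saline libraries. In WT it ran from 55.8 to 78.5 CPM with a median of 67.9 on L-AC, against 34.3 to 50.9 CPM with a median of 36.8 on saline. In both genotypes every L-AC library was above every saline library. The log2 fold change was 1.09 in KO (SE 0.11, edgeR adjusted p = 8.6e-08, 2.13-fold) and 0.80 in WT (SE 0.098, adjusted p = 6.4e-07, 1.75-fold).

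Mrpl17 encodes a large subunit protein with a bacterial counterpart (chr7:105803782-105811087, minus strand). It had 125.2, 120.4, 97.3, 103.7 and 95.6 CPM in KO L-AC, against 58.1, 65.4, 59.0, 59.4 and 49.7 CPM in KO saline livers. In WT it ran from 94.1 to 125.0 CPM (median 106.4) on L-AC, against 52.4 to 80.0 CPM (median 59.0) on saline. Here too the L-AC and saline libraries did not overlap in either genotype. It rose by 0.89 in KO (SE 0.11, edgeR adjusted p = 1.4e-06) and by 0.80 in WT (SE 0.099, adjusted p = 7.8e-07) on the log2 scale.

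Mrpl54, a large subunit gene with no bacterial counterpart (chr10:81264722-81266926, minus strand), had 25.5, 27.2, 22.9, 22.6 and 19.5 CPM in KO L-AC, against 13.4, 15.9, 13.7, 15.7 and 13.9 CPM in KO saline livers. The KO groups did not overlap. In WT it ran from 20.1 to 24.7 CPM (median 22.7) on L-AC, against 13.3 to 20.7 CPM (median 14.0) on saline, where the groups overlapped. Its log2 fold change was 0.70 in KO (SE 0.12, edgeR adjusted p = 6.1e-05) and 0.50 in WT (SE 0.11, adjusted p = 0.00043).

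Mrps2, a small subunit gene with a bacterial counterpart (chr2:28468066-28471177, plus strand), had 59.0, 47.1, 52.6, 53.3 and 57.8 CPM in KO L-AC, against 32.5, 34.6, 36.0, 33.5 and 32.7 CPM in KO saline livers. The KO groups were far apart. In WT it ran from 42.8 to 53.5 CPM (median 49.3) on L-AC, against 31.7 to 49.8 CPM (median 34.6) on saline, and the overlap came from 1 saline library at 49.8 CPM, the other 6 being at or under 37.4 CPM. Its log2 fold change was 0.67 in KO (SE 0.099, edgeR adjusted p = 8.3e-06) and 0.41 in WT (SE 0.086, adjusted p = 0.00041).

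The next risers were smaller. Mrpl16 and Mrpl3, both with bacterial counterparts in the large subunit, rose by 0.41 each in KO (SE 0.082 and 0.079) and by 0.25 and 0.33 in WT (SE 0.072 and 0.069), with edgeR adjusted p between 0.0002 and 0.0062. Mrps34, a mitochondria-specific small subunit gene, rose by 0.40 in KO (SE 0.091) and 0.29 in WT (SE 0.079), and Mrps9, the gene of a conserved small subunit protein, by 0.31 (SE 0.093) and 0.29 (SE 0.081). Mrps30, the gene of a large subunit protein specific to mitochondria, rose in KO by 0.43 (SE 0.11, edgeR adjusted p = 0.0030), with 24.1 to 29.2 CPM on L-AC and 17.5 to 22.9 CPM on saline; in WT its value was 0.21 (SE 0.097, adjusted p = 0.069).

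**Figure D2:**
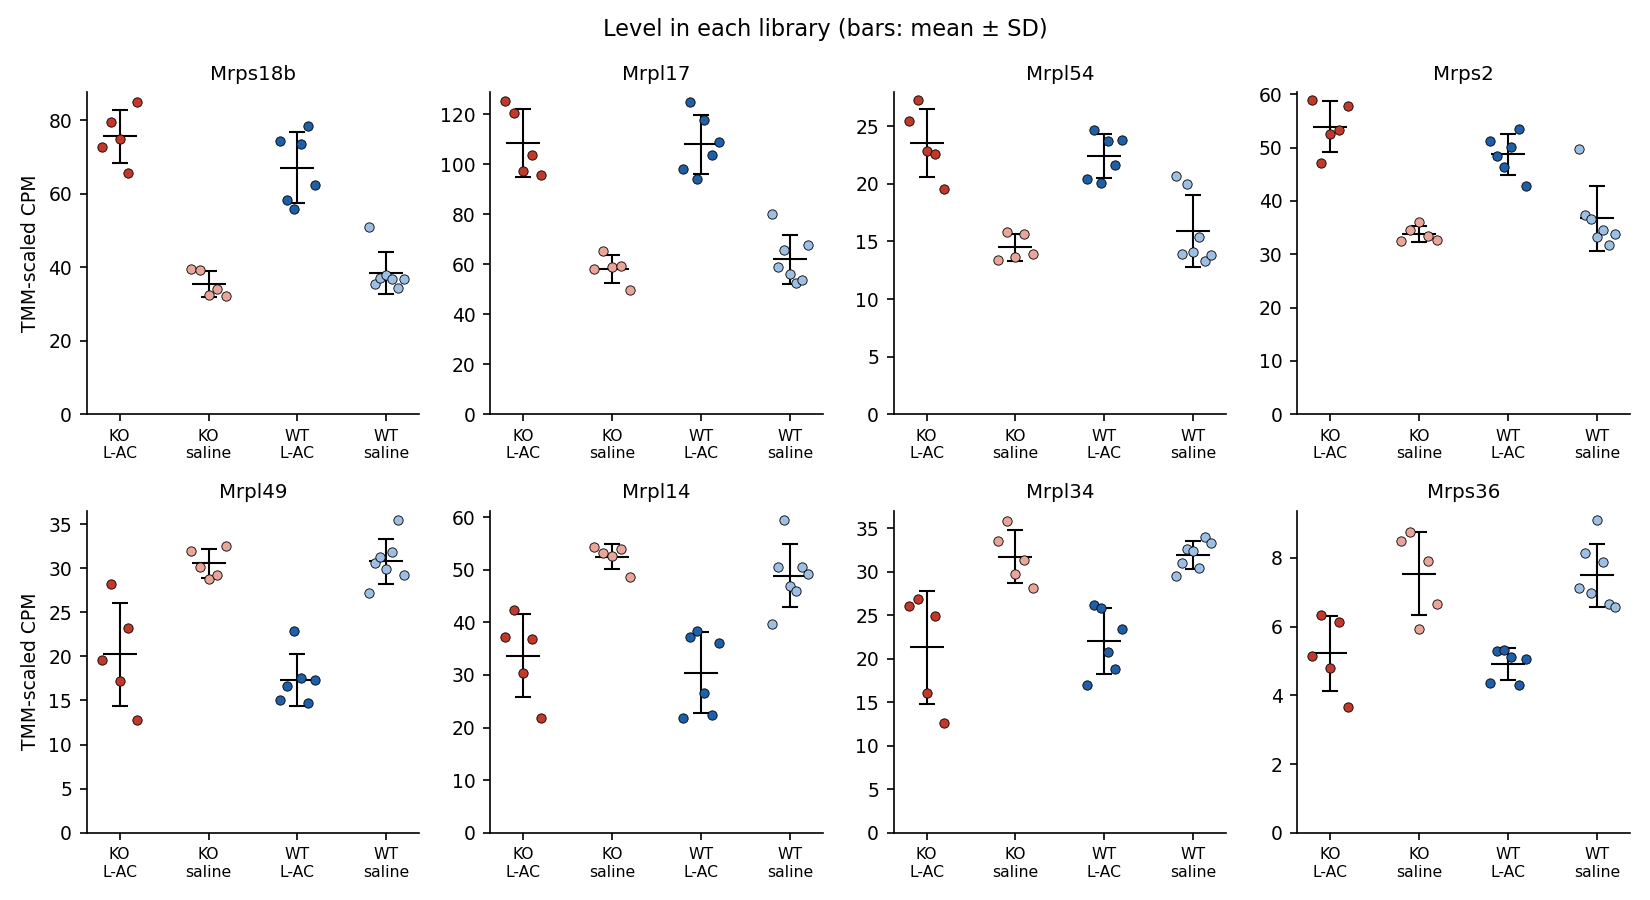
Level in each library (points) with the group mean and SD (bars) of the 4 genes that rose furthest (top row) and of 4 of the genes that fell furthest (bottom row), in TMM-scaled CPM, with L-AC left of saline in KO (red) and WT (blue). Mrps18b and Mrpl17 show no overlap between L-AC and saline libraries in either genotype, and 1 WT saline library lies high for Mrps18b (50.9 CPM) and Mrps2 (49.8 CPM).

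The 3 relatives of that single bacterial protein did not move together. Mrps18a, whose protein sits in the large subunit (chr17:46111004-46128908, plus strand), had 36.1, 38.8, 29.6, 34.4 and 29.7 CPM in KO L-AC, against 24.5, 28.1, 24.8, 25.6 and 21.3 CPM in KO saline livers, and 30.5 to 33.9 CPM in WT L-AC, against 22.4 to 27.6 CPM in WT saline livers. It rose with no overlap between groups in either genotype, by 0.44 in KO (SE 0.082, edgeR adjusted p = 0.00012) and 0.31 in WT (SE 0.072, adjusted p = 0.00099). Mrps18c, the small subunit relative closest to the bacterial form (chr5:100798759-100804467, plus strand), had 16.1 to 25.5 CPM in KO L-AC, against 20.8 to 22.8 CPM in KO saline livers, and 16.4 to 20.4 CPM in WT L-AC, against 20.2 to 24.5 CPM in WT saline livers. Its value was -0.15 in KO (SE 0.10, edgeR adjusted p = 0.24), and it fell by 0.26 in WT (SE 0.088, adjusted p = 0.015). The levels of Mrps18b and Mrps18c thus moved in opposite directions in WT, both past the test.

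Among the genes that fell, Mrpl49 and Mrpl14 fell furthest. Mrpl49 encodes a mitochondria-specific large subunit protein (chr19:6053630-6057751, minus strand). It had 19.6, 28.2, 17.2, 23.2 and 12.8 CPM in KO L-AC, against 31.9, 30.1, 28.8, 29.3 and 32.6 CPM in KO saline livers, and 14.7 to 22.8 CPM (median 17.0) in WT L-AC, against 27.2 to 35.4 CPM (median 30.6) in WT saline livers. The L-AC libraries lay below all saline libraries in both genotypes, and the KO L-AC libraries were spread widely. It fell by 0.60 in KO (SE 0.15, edgeR adjusted p = 0.0018) and by 0.83 in WT (SE 0.13, adjusted p = 1.4e-05) on the log2 scale. Its exons share 5.17% of their bases with Syvn1 on the other strand, which fell by 0.78 in KO (SE 0.25) and 0.69 in WT (SE 0.22). Strand was ignored and a read in such a stretch was counted for both genes, so their reads cannot be told apart there.

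Mrpl14 encodes a conserved large subunit protein (chr17:45686372-45698495, plus strand). It had 37.1, 42.4, 30.3, 36.8 and 21.8 CPM in KO L-AC, against 54.2, 53.2, 52.6, 54.0 and 48.5 CPM in KO saline livers, and 21.7 to 38.3 CPM (median 31.3) in WT L-AC, against 39.6 to 59.4 CPM (median 49.1) in WT saline livers. Again no L-AC library reached a saline library of its genotype. It fell by 0.64 in KO (SE 0.16, edgeR adjusted p = 0.0026) and by 0.68 in WT (SE 0.14, adjusted p = 0.00042).

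Mrpl34, the gene of another conserved large subunit protein (chr8:71464926-71465753, plus strand), had 26.1, 26.9, 16.1, 24.9 and 12.6 CPM in KO L-AC, against 33.6, 35.9, 29.7, 31.4 and 28.1 CPM in KO saline livers, and 17.0 to 26.2 CPM in WT L-AC, against 29.5 to 34.0 CPM in WT saline livers. Neither genotype showed an overlap, and KO L-AC replicates 3 and 5 were the lowest. It fell by 0.57 in KO (SE 0.16, edgeR adjusted p = 0.0048) and by 0.54 in WT (SE 0.14, adjusted p = 0.0027). Mrps36, the oxoglutarate dehydrogenase complex gene (chr13:100735940-100744659, minus strand), had 3.67 to 6.35 CPM in KO L-AC, against 5.92 to 8.76 CPM in KO saline livers, and 4.29 to 5.33 CPM in WT L-AC, against 6.58 to 9.11 CPM in WT saline livers. It fell by 0.53 in KO, where the groups overlapped (SE 0.14, edgeR adjusted p = 0.0037), and by 0.61 in WT, where they did not (SE 0.12, adjusted p = 0.0003).

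Further fallers are given here together. Mrps21, Mrpl18 and Mrpl28, genes of conserved proteins, fell by 0.49, 0.48 and 0.47 in KO (SE 0.15, 0.13 and 0.11) and by 0.51, 0.41 and 0.47 in WT (SE 0.14, 0.11 and 0.10). Mrpl39, a mitochondria-specific large subunit gene, fell by 0.41 in KO (SE 0.093) and 0.48 in WT (SE 0.082), with 19.9 to 28.7 CPM in KO L-AC, against 30.5 to 31.5 CPM in KO saline livers. Mrpl38, whose protein lies in the central protuberance of the large subunit, fell by 0.47 in KO (SE 0.19, edgeR adjusted p = 0.043) and by 0.54 in WT (SE 0.17, adjusted p = 0.0087). Its KO L-AC libraries were spread widely, from 29.91 to 76.08 CPM, against 58.75 to 79.25 CPM in KO saline livers. The call of Mrpl38 in KO was lost when KO L-AC replicate 1, 3, 4 or 5 or KO saline replicate 1 or 2 was left out, at adjusted p of 0.070, 0.099, 0.072, 0.13, 0.11 and 0.081 in that order. That call was also lost with age as a covariate (edgeR adjusted p 0.087) and with library totals alone (0.099). A fit of only the KO groups (0.077) and a fit with no filter on low counts (0.052) lost it too. Mrps27 and Mrps7, of the small subunit, had -0.25 (SE 0.12, edgeR adjusted p = 0.078) and -0.15 (SE 0.092, adjusted p = 0.19) in KO, and fell by 0.48 (SE 0.10) and 0.38 (SE 0.082) in WT. The exons of Mrps27 share 17.0% of their bases with 6430562O15Rik on the other strand. That gene fell by 0.34 in KO (SE 0.13, edgeR adjusted p = 0.037) and by 0.49 in WT (SE 0.12, adjusted p = 0.0013). Reads of the 2 genes cannot be told apart in the shared stretch.

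Members were also followed by their place in the ribosome. The stalk that recruits translation factors is built from the products of Mrpl10, Mrpl11 and Mrpl12, and their values were 0.11, 0.08 and 0.05 in KO and 0.0066, -0.04 and 0.05 in WT, with none called. Mrpl12, for one, had 109.7 ± 13.0 CPM in KO L-AC, against 106.3 ± 12.0 CPM in KO saline livers (SD, n = 5 each), and 105.6 ± 5.49 CPM in WT L-AC, against 102.0 ± 10.47 CPM in WT saline livers (SD, n = 6 and 7). Mrpl45, whose protein holds the exit of the tunnel to the inner membrane, fell by 0.27 in KO (SE 0.084) and by 0.32 in WT (SE 0.074). In KO its edgeR adjusted p was 0.010, and 0.086 when scaled by library totals alone and 0.052 in a fit of only the KO groups. Mrps12, a protein of the decoding centre, had -0.18 in KO (SE 0.13, edgeR adjusted p = 0.27) and fell by 0.30 in WT (SE 0.12, adjusted p = 0.035); without WT L-AC replicate 1, 4 or 5 or WT saline replicate 1, 3 or 7 the adjusted p in WT was 0.085, 0.056, 0.094, 0.062, 0.058 and 0.065 in that order. With library totals alone the edgeR adjusted p of Mrps12 in WT was 0.096. Mrpl42 was not called in either genotype.

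Calls were also counted by subunit and by origin, beside the 48.8% of all genes called in KO and 53.3% in WT. In the small subunit 9 of 26 genes rose and 5 fell in KO (53.9% called), and 8 rose and 11 fell in WT (73.1%), with a median log2 fold change of 0.03 in KO and -0.09 in WT. In the large subunit 12 of 50 rose and 11 fell in KO (46% called), and 10 rose and 16 fell in WT (52%), with a median of 0.04 in KO and -0.04 in WT. Of the 46 ribosomal members with a bacterial counterpart, 8 rose and 10 fell in KO (39.1% called), and 8 rose and 19 fell in WT (58.7%). Of the 30 specific to mitochondria, 13 rose and 6 fell in KO (63.3% called), and 10 rose and 8 fell in WT (60%). Neither the difference between these classes nor that from all genes was tested.

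Calls in KO and in WT went in the same direction wherever a gene had both. Of the 77, 18 rose in both KO and WT, against 21.7% of all genes, and 17 fell in both, against 20.6% of all genes; these are 23.4% and 22.1% of the members. None was called in opposite directions, as was also the case among all genes tested, and 28 were called in neither (36.4%, against 40.2% of all genes). Mrps30, Mrpl43 and Mrps31 were called in KO alone, all higher, where 3.41% of all genes were called higher and 3.06% lower in KO alone. In WT alone 11 members were called, all lower, where 4.89% of all genes were called higher and 6.15% lower in WT alone. The test of the difference itself, edgeR's interaction, called 0 of the 77, with 1 at an unadjusted p under 0.05. Mrpl43 and Mrps31 lie outside the rule for named genes and were picked after their values were seen. The call of Mrpl43 in KO (0.22, SE 0.073, edgeR adjusted p = 0.015) was lost without KO saline replicate 5, at 0.051. It was also lost in a fit of only the KO groups, at 0.057. The log2 fold changes of the 2 genotypes had a Pearson r of 0.97 over the 77 members, against 0.93 over all 14196 genes; genes of 1 set of libraries are not independent. The L-AC and saline libraries did not overlap for 20 members in KO (26.0%, against 32.6% of all genes) and for 16 in WT (20.8%, against 24.1%).

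**Figure D3:**
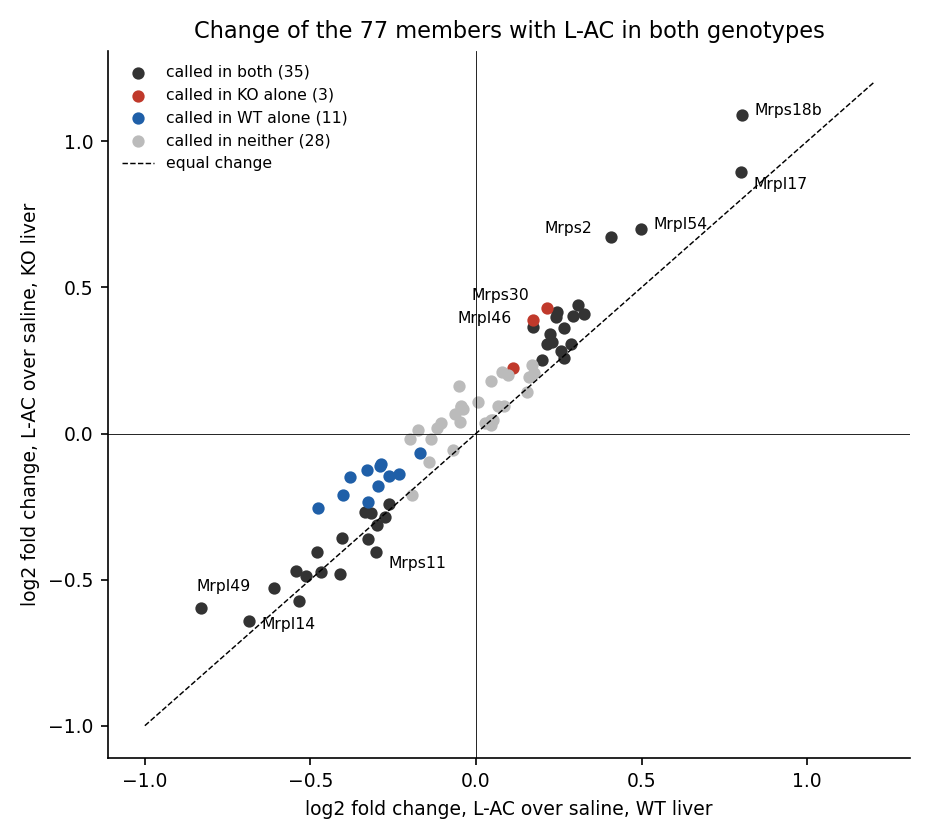
Log2 fold change of the 77 genes, L-AC over saline, in KO liver (vertical axis) against WT liver (horizontal axis), each point a gene, coloured by where it was called. Most points lie near the dashed line of equal change, with 64 of 77 above it, and no gene was called in opposite directions.

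Between genotypes, no mitochondrial ribosomal protein gene was called by edgeR, DESeq2 or limma-voom. Under L-AC 0 of 77 were called for KO against WT, as against 0.0141% of all genes (0.00704% higher and 0.00704% lower), and 2 had an unadjusted p under 0.05 in edgeR (2.60% of the members, against 4.53% of all genes). Under saline 0 were called, against 0.0141% of all genes (0.00704% in each direction), and 0 had an unadjusted p under 0.05, against 1.86% of all genes. The genes nearest to a call under L-AC were Mrpl9, Mrps28 and Mrpl46, at 0.19 (SE 0.088), 0.18 (SE 0.084) and 0.14 (SE 0.074), each with an edgeR adjusted p of 0.9996. Under saline they were Mrpl36, Mrpl19 and Mrps7, at -0.16 (SE 0.082), -0.14 (SE 0.070) and -0.14 (SE 0.086), again far from a call. KO and WT libraries overlapped for every member, under L-AC (0.451% of all genes did not overlap) and under saline (0.141%). For the 3 genes with the smallest p of the interaction, which compares the L-AC response of KO with that of WT, the differences were 0.22 for Mrpl19 (SE 0.10), 0.27 for Mrps2 (SE 0.13) and 0.29 for Mrps18b (SE 0.15), with edgeR adjusted p of 0.9999. No gene of any kind was called for the interaction by edgeR, DESeq2 or limma-voom, so 0.0% of all genes, and 1 member had an unadjusted p under 0.05 in edgeR, against 2.25% of all genes.

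The signs of these small differences leaned in opposite directions under L-AC and under saline. Under L-AC, KO was above WT for 58 of 77 genes (75.3%, against 52.3% of all genes), and under saline for 20 of 77 (26.0%, against 48.8%). The L-AC response was the larger in KO, in the signed sense, for 64 of 77 (83.1%, against 54.1%), with a median difference of 0.09 on the log2 scale, against 0.02 for all genes. The median difference was 0.12 for 27 genes of ribosome assembly and RNA modification and 0.14 for 17 translation factors and messenger RNA handling genes. It was 0.11 for 20 genes of mitochondrial aminoacyl-tRNA synthesis and 0.13 for 6 mitoribosomal proteins not named Mrp. For import and quality control, cytosolic ribosomal protein and oxidative phosphorylation genes it was 0.08, 0.03 and 0.01. This lean was thus not particular to the members. All 77 values come from the same libraries and are not independent. The lean under L-AC depended on single KO L-AC libraries. Against 0.05 with all libraries, the members' median difference of KO from WT was -0.0037 without replicate 2. It was 0.09 without replicate 3 and 0.08 without replicate 5. The median difference in response was 0.04, 0.13 and 0.13 in that order. Under saline the median of -0.03 became -0.07 without KO saline replicate 2 and -0.01 without KO saline replicate 5.

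The libraries of the KO L-AC group spread most. The summed level of the 77 genes was 2392 ± 257 CPM in KO L-AC (SD, n = 5), 2296 ± 78.3 CPM in WT L-AC (n = 6), 2306 ± 125.1 CPM in KO saline (n = 5) and 2358 ± 86.7 CPM in WT saline livers (n = 7), and the 4 groups overlapped. Within KO L-AC, replicates 1, 2 and 4 had 2500, 2733 and 2455 CPM, and replicates 3 and 5 had 2119 and 2152 CPM. Replicates 3 and 5 were also the youngest mice of this group, at 28 and 29 weeks. Replicates 1, 2 and 4 were 38, 31 and 37 weeks old, and the part of age in this split was not tested. The mean deviation of the 77 genes from their group mean was 0.21 on the log2 scale in replicate 2, and -0.18 and -0.17 in replicates 3 and 5. The summed level of 82 cytosolic ribosomal protein genes went the same way, at 18671, 16980 and 15910 CPM in replicates 1, 2 and 4 and 13781 and 13921 CPM in replicates 3 and 5. The hepatocyte marker sum did not, at 36874, 51689 and 59458 CPM in the first set and 43596 and 58591 CPM in the second.

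**Figure D4:**
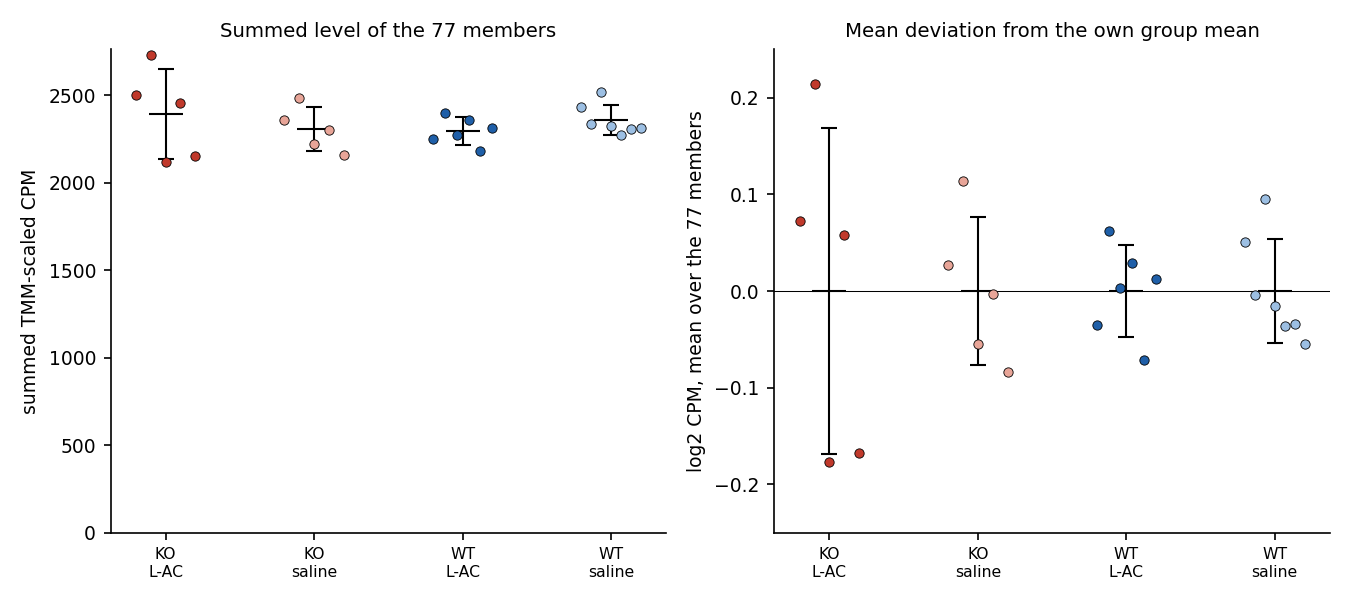
Left, the summed level of the 77 genes in each library (points) with the group mean and SD, in TMM-scaled CPM. Right, the mean over the 77 genes of the deviation of log2 CPM from the group's own mean, where KO L-AC replicate 2 stands at 0.21 and replicates 3 and 5 at -0.18 and -0.17.

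Apart from the groups, most members tended to rise and fall together from library to library. After the group means were taken out, the level of a member across the 23 libraries had a median Pearson r of 0.65 with the mean of the other 76 members (range -0.21 to 0.93). For 14119 other genes the median r with the members' mean was -0.03 (range -0.88 to 0.94), so some other genes followed that mean as closely as any member. Between pairs of members the median r was 0.39 (range -0.67 to 0.93). These are descriptions over libraries that share scaling and depth, with no p. The members' mean deviation was largest in KO L-AC replicates 2, 3 and 5, at 0.21, -0.18 and -0.17. In the other libraries it ran from -0.08 to 0.11. How far these r rest on the KO L-AC libraries was not tested. Mrpl51, Mrps15 and Mrpl30 followed the others most closely, at 0.93, 0.92 and 0.90; genes are named here by this r, after it was seen. Mrps31, Mrps2, Mrpl9, Mrps25 and Mrps18b did not follow them, at -0.21, -0.08, -0.06, -0.01 and 0.0044, and 2 of these, Mrps18b and Mrps2, were among the 4 that rose furthest with L-AC.

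Levels of different members can be set side by side only per length, here as CPM per kb of the exon length counted. On that scale Mrpl12, of the stalk, stood highest, at 111.2 CPM per kb over the 23 libraries, followed by Mrpl52 at 73.2, Mrpl14 at 69.8, Mrpl24 at 61.4 and Mrpl30 at 60.2. Mrpl12 had 115.6 ± 13.7 CPM per kb in KO L-AC, 111.3 ± 5.78 in WT L-AC, 112.0 ± 12.6 in KO saline and 107.5 ± 11.03 in WT saline livers (SD), so the groups overlapped. The ranges over libraries of the next 4 genes ran into each other, and those of Mrpl52 and Mrpl14 reached into that of Mrpl12. Mrpl14 had 56.6 ± 13.3 CPM per kb in KO L-AC, against 88.3 ± 3.90 in KO saline livers, and 51.1 ± 12.9 in WT L-AC, against 82.1 ± 10.1 in WT saline livers. The lowest were Mrpl19 at 2.91, Mrps25 at 4.90, Mrpl1 at 5.35, Mrpl35 at 5.76 and Mrpl11 at 8.69 CPM per kb, whose exon models run from 2882 to 6065 bases, so that the levels spanned 38.2-fold. The median member had 23.0 CPM per kb, against 4.78 for all genes tested.

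Promoters were looked at because genes of 1 complex moved in opposite directions. RefSeq windows on GRCm38.p6, from 250 bases before a gene's start to 50 after it, were at hand for 68 of the 77 genes. The sequences shown are those of 3 of the genes that rose furthest (Mrps18b, Mrpl17 and Mrps2), of 3 that fell furthest (Mrpl49, Mrpl14 and Mrpl34), and of Mrps11, whose window also holds the start of Mrpl46 on the other strand. Each is given from 5′ to 3′ on the gene's own strand. Capitals mark, on either strand, the letters of 6 motifs: GCATGCGC (NRF1 core), CCGGAAG (ETS core), AAGATGGC (YY1 core), TGACGTCA (CRE), GGGCGG (SP core) and AAGGTCA (extended nuclear receptor site). NRF1, ETS factors of the GABP kind and YY1 are known regulators of nuclear genes for mitochondrial proteins.
Mrps18b (chr17:35916391-35916690, minus strand): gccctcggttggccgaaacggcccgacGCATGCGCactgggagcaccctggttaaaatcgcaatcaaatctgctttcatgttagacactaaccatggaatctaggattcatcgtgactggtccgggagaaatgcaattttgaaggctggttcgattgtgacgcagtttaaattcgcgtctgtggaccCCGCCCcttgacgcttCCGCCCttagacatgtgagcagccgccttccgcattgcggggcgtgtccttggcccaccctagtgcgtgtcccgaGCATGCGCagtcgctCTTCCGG
Mrpl17 (chr7:105811038-105811337, minus strand): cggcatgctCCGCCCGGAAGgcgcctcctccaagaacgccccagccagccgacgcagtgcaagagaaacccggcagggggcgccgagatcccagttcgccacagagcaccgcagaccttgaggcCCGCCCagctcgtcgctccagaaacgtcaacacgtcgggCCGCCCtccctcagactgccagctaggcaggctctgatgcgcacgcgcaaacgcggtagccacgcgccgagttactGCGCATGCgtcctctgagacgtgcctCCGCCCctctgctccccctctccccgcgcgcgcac
Mrps2 (chr2:28467816-28468115, plus strand): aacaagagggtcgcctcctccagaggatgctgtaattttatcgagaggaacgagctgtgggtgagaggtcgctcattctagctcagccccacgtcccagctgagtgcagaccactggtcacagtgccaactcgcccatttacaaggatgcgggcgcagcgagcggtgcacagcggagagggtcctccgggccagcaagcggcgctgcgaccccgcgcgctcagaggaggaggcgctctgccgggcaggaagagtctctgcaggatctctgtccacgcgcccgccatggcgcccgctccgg
Mrpl49 (chr19:6057706-6058005, minus strand): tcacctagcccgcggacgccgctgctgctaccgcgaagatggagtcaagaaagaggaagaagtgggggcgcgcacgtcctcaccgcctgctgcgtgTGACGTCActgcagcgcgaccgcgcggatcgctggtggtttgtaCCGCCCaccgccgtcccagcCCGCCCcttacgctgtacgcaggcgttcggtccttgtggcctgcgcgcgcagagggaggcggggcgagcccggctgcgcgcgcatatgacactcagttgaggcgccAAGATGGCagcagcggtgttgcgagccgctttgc
Mrpl14 (chr17:45686099-45686398, plus strand): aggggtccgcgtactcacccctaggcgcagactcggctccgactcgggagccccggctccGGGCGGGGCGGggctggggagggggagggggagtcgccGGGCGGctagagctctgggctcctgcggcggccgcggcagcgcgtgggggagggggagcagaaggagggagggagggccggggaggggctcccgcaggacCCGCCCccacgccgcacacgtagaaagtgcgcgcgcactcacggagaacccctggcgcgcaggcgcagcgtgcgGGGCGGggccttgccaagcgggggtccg
Mrpl34 (chr8:71464676-71464975, plus strand): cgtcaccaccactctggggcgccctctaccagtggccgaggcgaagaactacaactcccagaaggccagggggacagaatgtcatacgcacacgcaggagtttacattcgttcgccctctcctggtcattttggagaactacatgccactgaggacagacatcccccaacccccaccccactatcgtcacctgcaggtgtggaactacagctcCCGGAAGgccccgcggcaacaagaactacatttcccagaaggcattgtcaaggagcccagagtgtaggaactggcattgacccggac
Mrps11 (chr7:78782881-78783180, plus strand): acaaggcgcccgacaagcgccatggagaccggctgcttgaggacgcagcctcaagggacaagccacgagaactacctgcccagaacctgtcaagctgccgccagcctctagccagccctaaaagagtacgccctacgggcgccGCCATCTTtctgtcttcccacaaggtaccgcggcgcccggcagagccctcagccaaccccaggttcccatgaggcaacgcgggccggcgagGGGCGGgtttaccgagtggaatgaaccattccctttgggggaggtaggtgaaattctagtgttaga

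In the Mrps18b window the NRF1 core begins 223 bases before and at base 29 after the RefSeq start, with an ETS core at base 44 and SP cores 63 and 47 bases before it. The gene model that was counted starts further downstream, at base 35916369, outside that window. The Mrpl17 window holds an NRF1 core that begins 11 bases before the start, and an ETS core 237 bases before it that overlaps an SP core. The Mrps2 window holds none of the 6. Among the genes that fell, Mrpl49 has a YY1 core at base 17 and a CRE 154 bases before the start, Mrpl34 has an ETS core 37 bases before it, and Mrpl14 has only SP cores, 2 of which overlap. A match is a description of the letters and not of a bound site.

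Over the 68 windows, 8 members (11.8%) held the NRF1 core, against 5.66% of the 10407 other tested genes in the table and 3.05% of all 27025 genes in it. The ETS core was in 25 (36.8%, against 18.4% and 9.93%) and the YY1 core in 12 (17.6%, against 4.86% and 3.19%). The CRE was in 2 (2.94%, against 3.41% and 2.03%), the SP core in 34 (50%, against 65.8% and 38.2%) and the nuclear receptor site in 4 (5.88%, against 4.38% and 5.38%). Among 15 members higher in both L-AC comparisons with a window, 2 held the NRF1 core, 8 the ETS core and 1 the YY1 core; among 15 lower in both, the numbers were 2, 5 and 3. These shares were not tested.

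Mrpl46 and Mrps11 show the opposite movement at its closest. Their starts lie 42 bases apart on opposite strands of chromosome 7, so that the Mrps11 window holds both. In that window a YY1 core begins 107 bases and an SP core 16 bases before the Mrps11 start. The window of Mrpl46 itself held an SP core and no YY1 core. Mrpl46 (chr7:78775341-78783089), a large subunit gene of the central protuberance, had 22.1, 26.1, 18.8, 20.3 and 21.6 CPM in KO L-AC, against 15.7, 18.6, 16.5, 17.7 and 16.01 CPM in KO saline livers, and 18.9 to 21.4 CPM in WT L-AC, against 16.4 to 18.5 CPM in WT saline livers. Its groups did not overlap, and it rose by 0.36 in KO (SE 0.077, edgeR adjusted p = 0.00051) and 0.17 in WT (SE 0.068, adjusted p = 0.038). Mrps11 (chr7:78783131-78792988), a conserved small subunit gene picked after its values were seen, had 9.76, 13.8, 7.01, 9.47 and 8.43 CPM in KO L-AC, against 13.7, 13.0, 12.1, 12.8 and 12.5 CPM in KO saline livers, and 8.78 to 10.8 CPM in WT L-AC, against 10.1 to 13.6 CPM in WT saline livers. Its groups overlapped in both genotypes, through KO L-AC replicate 2 in KO, and it fell by 0.40 in KO (SE 0.13, edgeR adjusted p = 0.012) and 0.30 in WT (SE 0.11, adjusted p = 0.026). In WT the calls were close to the threshold. Leaving out WT L-AC replicate 1, 4 or 5 ended that of Mrpl46, as did leaving out WT saline replicate 2, 3, 5 or 6 (edgeR adjusted p 0.089, 0.055, 0.068, 0.067, 0.053, 0.058 and 0.075 in that order). For Mrps11 the call ended without L-AC replicate 1, 4 or 5 or saline replicate 3 or 5 of WT (0.053, 0.057, 0.064, 0.052 and 0.053). It also ended with library totals alone (edgeR adjusted p 0.058). That of Mrpl46 in WT ended with upper-quartile factors (0.065) and with no filter on low counts (0.056).

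**Figure D5:**
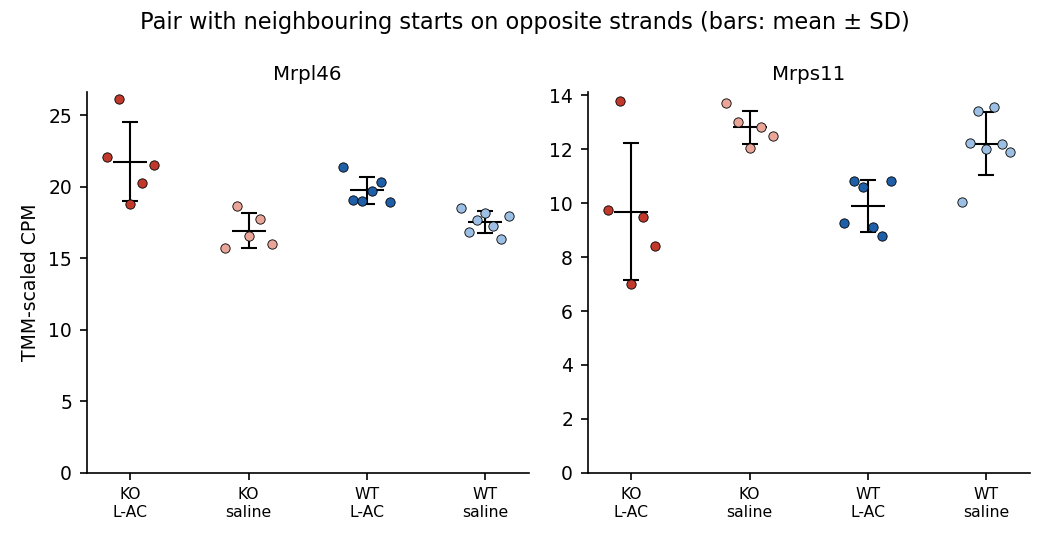
Level of Mrpl46 (left) and Mrps11 (right) in each library (points) with the group mean and SD (bars), in TMM-scaled CPM, L-AC left of saline in KO (red) and WT (blue). Mrpl46 is higher in every L-AC library than in any saline library of its genotype, while for Mrps11 the groups overlap and 4 of the 5 KO L-AC libraries are lower than all KO saline libraries.

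Of the 77 members, 26 had a tested partner that starts within 1000 bases on the other strand and runs the other way. Members and partners had log2 fold changes of the same sign in 15 of 25 pairs in KO and 16 of 25 in WT, with the pair of Mrpl46 and Mrps11, both members, counted once, against 60.0% and 56.4% of 817 such pairs among all genes. The r of their log2 fold changes was 0.06 in KO and 0.07 in WT, against 0.31 and 0.32 over all pairs. Fau, 137 bases from Mrpl49, had 0.08 in KO and 0.07 in WT and was not called. Tmem63b, 154 bases from Mrpl14, fell with it, by 0.52 in KO (SE 0.12) and 0.44 in WT (SE 0.11). Ppp1r10, 827 bases from Mrps18b, had -0.44 in KO (SE 0.28) and -0.49 in WT (SE 0.25) and was not called.

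Reads were counted without strand and for every gene they touched, so members whose exons overlap another gene are uncertain. This holds for 10 members: 58.3% of the exon bases of Mrps25 lie in exons of Nr2c2, 41.4% of Mrpl41 in Dph7, 37.4% of Mrpl24 in Rrnad1, 22.9% of Mrpl19 in Gcfc2, 18.6% of Mrps6 in Slc5a3 and 10.1% of Mrpl48 in Rab6a. For Mrps27 and Mrpl49 the shares are given above, and for Mrps23 and Mrpl53 they were 2.13% and 2.26%.

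Other genes of mitochondrial translation also split. The 6 mitoribosomal proteins not named Mrp comprised 1 that rose and 0 that fell in KO, and 0 that rose and 3 that fell in WT. Dap3, a small subunit GTP-binding protein, had -0.14 in KO (SE 0.10, edgeR adjusted p = 0.27) and fell by 0.36 in WT (SE 0.088, adjusted p = 0.0015). Of 27 genes of ribosome assembly and ribosomal RNA modification, 9 rose and 6 fell in KO, and 9 rose and 10 fell in WT. The pseudouridine synthase family gene Trub2 rose by 1.92 in KO and 1.73 in WT, and Mpv17l2, whose inner membrane protein takes part in ribosome assembly, by 0.77 and 0.67. Mettl17, a factor of small subunit assembly, fell by 0.81 in KO and 0.89 in WT, and Rpusd3, a pseudouridine synthase family gene, by 0.60 and 0.72. Among 17 translation factors and messenger RNA handling genes 3 rose and 0 fell in KO, and 4 rose and 4 fell in WT, and among 20 genes of mitochondrial aminoacyl-tRNA synthesis 7 rose and 6 fell in KO, and 6 rose and 7 fell in WT. Of 11 genes of mitochondrial DNA maintenance and transcription 2 rose and 4 fell in KO, and 1 rose and 6 fell in WT. Letm1, an inner membrane protein, rose by 0.32 in KO and 0.30 in WT, and the histidyl-tRNA synthetase gene Hars2 fell by 0.57 and 0.79. Polg2, the accessory subunit gene of the mitochondrial DNA polymerase, fell by 1.12 in KO and 0.98 in WT.

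Import and quality control genes went more in 1 direction: 11 of 17 rose and 0 fell in KO, and 10 rose and 2 fell in WT, with a median of 0.25 and 0.24. Tomm20 and Timm23, encoding parts of the outer and inner membrane import complexes, rose by 0.83 and 0.80 in KO and by 0.74 and 0.80 in WT. Of 12 regulators of nuclear genes for mitochondrial proteins, 5 rose and 2 fell in KO, and 7 rose and 1 fell in WT: Myc rose by 2.73 in KO and 2.25 in WT and Gabpb1, a GABP subunit gene, by 0.47 and 0.46, while Nrf1 and Yy1, named because their motifs were searched, were not called in either genotype. Of 82 cytosolic ribosomal protein genes 15 rose and 2 fell in KO, and 19 rose and 2 fell in WT, so 20.7% and 25.6% were called, with a median of 0.16 and 0.12. Of 77 oxidative phosphorylation subunit genes encoded in the nucleus 12 rose and 14 fell in KO, and 12 rose and 18 fell in WT, with a median of -0.04 and -0.06. All these counts stand against 48.8% of all genes called in KO and 53.3% in WT, and no difference between lists was tested.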

How the data were processed

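Liver polyA RNA of 23 mice was sequenced as single-end reads, 1 library per mouse, per the labels' protocols. The deposited files hold raw counts of reads per gene, which the authors made with featureCounts 1.4.4 from primary alignments over the exons of mm10 gene models, without strand, per the file headers. A read touching several genes was counted for each of them. Alignment was by STAR 2.4.0, per the submitters' processing notes. Replicates are separate mice, numbered in accession order within a group, and the labels give no batch.

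Genes were kept by filterByExpr of edgeR 4.0.16 (R 4.3.3; minimum count 10, minimum total 15), scaled by TMM and fitted with 4 group means over 23 libraries (estimateDisp, glmQLFit, glmQLFTest, two-sided). P-values were Benjamini-Hochberg adjusted over 14196 genes. The fit was tested on simulated counts with 200 changed genes. Totals were 24521896 to 48095959 counts, and members had 119 to 5968 counts. Alternatives were DESeq2 1.42.0, limma-voom (limma 3.58.1), other scalings and filters, age in weeks as a covariate, fits restricted to a contrast's own groups, a threshold of 0.01, and each library left out. Named genes were the 8 rising and 8 falling called members of largest change in each L-AC comparison, the 3 of smallest p where none was called, the 5 highest and 5 lowest per kb, and some chosen by role; any other is said to lie outside the rule. Members, lists and motifs were chosen with earlier results of these data known. List counts use adjustment over all genes. Promoter windows are RefSeq's on GRCm38.p6, the same coordinates as mm10.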

Additional observations from a re-analysis of the deposited data

Results flagged for a closer look

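Among 39 named members and their summed level, each in 4 groups, 10 of 160 groups held a library that stood apart from the others of its group by Dixon's test at 95%; chance flags about 1 in 20 groups. WT saline replicate 1 was high for 3 genes: Mrps18b had 50.9 CPM there, against 34.3 to 37.8 CPM in the other 6 libraries, Mrps2 had 49.8 CPM, against 31.7 to 37.4 CPM, and Mrps27 had 27.9 CPM, against 20.1 to 21.9 CPM. Without that library 46 members were called in WT (20 higher and 26 lower), and the log2 fold changes of Mrps18b, Mrps2 and Mrps27 were 0.88, 0.50 and -0.41. WT saline replicate 5 was low for Mrps18a, at 22.4 CPM against 26.2 to 27.6 CPM. WT L-AC replicate 3 was high for Mrpl49, at 22.8 CPM against 14.7 to 17.5 CPM, and low for Mrps28, at 15.5 CPM against 18.8 to 20.4 CPM. KO saline replicate 2 was high for Mrpl42, at 31.2 CPM against 27.4 to 28.4 CPM, and for Mrpl45, at 29.1 CPM against 23.8 to 24.9 CPM. KO saline replicate 5 was low for Mrpl14, at 48.5 CPM against 52.6 to 54.2 CPM, and KO saline replicate 4 was low for Mrpl1, at 22.4 CPM against 23.8 to 24.3 CPM.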

How the results depend on the processing

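The number of called members, both directions together, stayed within 1.5 times of that reported under every alternative run. It was 27 to 41 in KO and 33 to 47 in WT for L-AC against saline, and 0 throughout for the genotype comparisons and the interaction. Leaving out 1 library gave 33 to 41 in KO, 40 to 47 in WT and 0 to 0 elsewhere. A fit of only the groups compared called 28 in KO (17 higher, 11 lower). Of the counts in 1 direction, those in KO moved by over 1.5 times: against 21 higher and 17 lower, 32 were higher and 9 lower with library totals alone, 11 were lower in that restricted fit and also without KO L-AC replicate 3, and 9 were lower at the threshold of 0.01. Of the 38 calls in KO and 46 in WT, 26 and 36 were kept under every alternative other than the stricter threshold, and 9 and 8 were lost when some library was left out. Mrpl15, Mrpl2, Mrpl22, Mrpl38 and Mrps22, all lower in KO, lost their calls with age as a covariate (edgeR adjusted p 0.054 to 0.087). They are named here by that loss. With that covariate the share of higher among called members was 64.7% against 55.3% in KO and 40.4% against 39.1% in WT. With library totals alone 41 were called in KO and 46 in WT, of which 30 and 40 were shared with the TMM fit. The share of higher among them was 78.1% against 55.3% in KO and 52.2% against 39.1% in WT. All genes shifted up with the members there, by 0.11 in KO and 0.07 in WT at the median. On that scaling the summed level on L-AC over saline in WT was 1.02, against 0.974 with TMM; the cause was not tested. No paired analysis was possible because replicate numbers follow accession order and pair no mice.

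Members whose estimates lay near 0 and were not called changed sign under some settings. With library totals alone the values in KO became 0.040 for Mrpl30, 0.012 for Mrpl42, 0.087 for Mrpl52 and 0.0031 for Mrpl9, and in WT 0.031 for Mrpl11, 0.023 for Mrpl35 and 0.015 for Mrpl19. Mrpl52 in KO was 0.036 with age as a covariate. Mrpl24 in KO was -0.0011 with the filter of 1 CPM in 5 libraries and -0.013 with limma-voom, and Mrpl10 in WT was -0.0060 with upper-quartile factors and -0.0026 with that filter. With 1 library left out the values ran from -0.016 to 0.10 for Mrpl12, from -0.048 to 0.12 for Mrpl24 and from -0.13 to 0.071 for Mrpl52 in KO, and from -0.0087 to 0.028 for Mrpl10 in WT. Every member had at least 119 counts in every library; what depth adds to the error was not tested.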
